A study of Rattus norvegicus with 74 samples.

Results

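The genes described here are 10 members of the circadian clock: Clock, Per1, Per2, Per3, Cry1, Cry2, Nr1d1, Nr1d2, Dbp and Tef. They were taken by symbol from the 3 count tables, where each symbol had 1 row among 30560 genes, and all 10 had counts in all 74 libraries. The libraries were made from ribosomal-RNA-depleted total RNA of 30 wild-type male Wistar Kyoto rats, numbered between 2 and 32 and killed at 9 weeks of age. Rats of the trained group (ExT) ran on a motorised treadmill for 4 weeks, on 5 days a week, reaching 60 minutes a day at 20 m/min, and were sampled 24 hours after the last session. Sedentary rats (Sed) stood on a stationary treadmill for as long. All rats of both groups drank water with deuterium oxide and were kept in pairs under 12 hours of light and 12 hours of darkness. Whole red gastrocnemius muscle (SM) and mitochondria isolated from it (MT) each gave 15 Sed and 15 ExT libraries, and the left ventricle of the heart (LV) gave 7 of each. The mitochondria were captured with antibodies and treated with RNase A and proteinase K before lysis. The hour of sampling is not given in the sources used here, nor is a date for any rat. Rat number was therefore the stand-in for the order of sampling, with rats 2 to 16 as the earlier range (7 Sed and 7 ExT in SM) and rats 17 to 32 as the later range (8 Sed and 8 ExT).

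The mammalian clock is a feedback loop that turns once a day in nearly every cell. CLOCK pairs with ARNTL (BMAL1), or NPAS2 takes its place, and the pair binds E-box sequences and switches on the Per and Cry genes, whose proteins return to the nucleus and block it. The nuclear receptors NR1D1 and NR1D2 (REV-ERB alpha and beta) repress Arntl and Npas2 in a second loop, and the factors DBP and TEF carry the rhythm to output genes through D-box sequences. In muscle and heart these genes are known to swing strongly over the day and to respond to feeding, activity and glucocorticoids.

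Promoter windows of 250 bases before the annotated transcript start were read from RefSeq, build GRCr8, for 9 of the 10 genes, in 11 windows. The windows of Per2, Tef and Nr1d1 are printed, 5′ to 3′ on the gene's strand, because their levels are given rat by rat in the results. Capitals mark an E-box (CACGTG), its variant the E'-box (CACGTT) or a D-box (TTATGTAA).
Per2, chr9:99496994-99497243, minus strand: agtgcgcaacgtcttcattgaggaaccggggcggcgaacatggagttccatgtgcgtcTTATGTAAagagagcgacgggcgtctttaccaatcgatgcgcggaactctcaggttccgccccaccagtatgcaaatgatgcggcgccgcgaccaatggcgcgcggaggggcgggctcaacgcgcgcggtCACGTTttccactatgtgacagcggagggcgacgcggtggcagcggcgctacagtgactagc
Tef, chr7:115206577-115206826, plus strand: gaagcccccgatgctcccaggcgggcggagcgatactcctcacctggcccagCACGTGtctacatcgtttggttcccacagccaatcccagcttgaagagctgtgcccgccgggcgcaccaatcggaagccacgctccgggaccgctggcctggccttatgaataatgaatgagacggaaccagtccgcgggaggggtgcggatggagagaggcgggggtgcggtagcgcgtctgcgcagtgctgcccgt
Nr1d1, chr10:84229455-84229704, minus strand, the downstream of its 2 windows: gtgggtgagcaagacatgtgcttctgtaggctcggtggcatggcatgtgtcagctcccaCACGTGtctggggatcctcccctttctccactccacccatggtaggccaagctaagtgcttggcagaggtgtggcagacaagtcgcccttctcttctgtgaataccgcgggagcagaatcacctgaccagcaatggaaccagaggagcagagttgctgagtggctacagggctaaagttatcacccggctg
The Per2 window held an E'-box that began 62 bases before the start and a D-box 192 bases before it. The Tef window held an E-box at 198 bases and the Nr1d1 window an E-box at 191 bases. With both strands searched, CACGTG occurred in 2 of the 11 windows and in 5.59% of all 33469 windows of this length, and CACGTT in 3 of the 11 and in 4.07%, the other holders being Cry2 and the upstream window of Nr1d1. A D-box (TTATGTAA or TTACGTAA) occurred in 1 of the 11 windows and in 0.932% of all. The letters AGGTCA, found within the sites that NR1D1 binds, occurred in the Nr1d2 window alone among the 11 and in 14.1% of all, and the cyclic-AMP element TGACGTCA occurred in none of the 11 and in 1.59% of all. A match is a string of letters, not a shown site of binding.

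Library totals were 19477976 to 39401323 counts in SM, 54645657 to 75758777 in LV and 530397 to 9988027 in MT. Genes of the mitochondrial genome took 22.1% to 35.9% of the counts in SM, 39.9% to 50.7% in LV and 12.9% to 95.4% in MT, which left 430162 to 1055433 nuclear-encoded counts in an MT library. The labelled tissues were checked by marker sums in CPM, counts divided by the library total and scaled within each tissue by edgeR's trimmed mean of M-values (TMM). The 5 skeletal fibre markers found summed to 57310 to 131214 CPM in SM and to 1343 to 1999 CPM in LV. The 6 heart markers summed to 23444 to 33614 CPM in LV and to 3.01 to 20.9 CPM in SM. In MT the fibre markers summed to 168 to 1066 CPM.

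Training was compared in SM to ask whether the clock genes stood at another level after 4 weeks of running. Per3, a period gene of weaker effect on the core loop than its relatives, ranged from 11.8 to 23.2 CPM in the 15 Sed rats (median 16.7) and from 10.4 to 29.3 CPM in the 15 ExT rats (median 20.6). The ranges overlapped, and 12 of the 15 trained rats lay above the Sed median. The fitted difference was a log2 fold change of 0.34 (edgeR quasi-likelihood adjusted p = 0.181, SE 0.112). Dbp, an output factor of the loop, ranged from 7.87 to 13.4 CPM in Sed (median 10.8) and from 8.89 to 22.5 CPM in ExT (median 12.5), with 12 of 15 trained rats above the Sed median. Its difference was 0.32 (edgeR adjusted p = 0.188, SE 0.110). Neither passed the threshold of 0.05 on p-values adjusted over all genes by Benjamini and Hochberg.

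The other members differed by less or with wider error. Per2, a core repressor, had medians of 19.03 CPM in Sed and 25.8 CPM in ExT (log2 fold change 0.33, SE 0.161), and Per1, the period gene that answers fastest to hormones and activity, had medians of 14.9 and 12.1 CPM (-0.34, SE 0.195). Clock itself had medians of 48.2 and 43.5 CPM (-0.13, SE 0.0613). Nr1d1 had a log2 fold change of -0.01, but its 95% interval ran from -0.63 to 0.60, since the gene ranged from 9.95 to 110 CPM over the 30 rats. In all, 0 of the 10 members were called in SM, where 28 of 13570 genes were (0.206%). The members' median log2 fold change was 0.10, against -0.01 over all genes. Leaving out any 1 of the 30 rats, fitting each range of rats alone, or leaving out rats 25 to 29 gave 0 called members as well. These intervals leave room for differences of the sizes seen, so the test does not show that the clock genes were alike in the 2 groups.

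Partners and neighbours of the members were taken from a list of 20 other clock genes, of which 17 were tested in SM and 0 were called. Npas2, the stand-in for Clock, was nearest to the threshold, at a median of 10.8 CPM in Sed and 7.61 CPM in ExT (log2 fold change -0.48, SE 0.125, edgeR adjusted p = 0.0900). Arntl, the partner of Clock, had medians of 30.1 and 26.4 CPM (-0.28, SE 0.0979, edgeR adjusted p = 0.195). Among 10 genes that respond to glucocorticoids 0 were called. Among 10 immediate early genes 0 were called and 10 had values below 0, with Egr1, an early transcription factor, at -0.80 (edgeR adjusted p = 0.0546, SE 0.183). All 6 slow-fibre markers had values above 0 with none called (summed level 4192 to 23777 CPM in Sed and 4407 to 25678 CPM in ExT, no marker at 0), as had all 5 endothelial markers (298 to 615 and 424 to 619 CPM, no marker at 0) and all 3 Schwann cell markers (5.00 to 106 and 16.8 to 128 CPM, no marker at 0). Whether fibre, vessel or nerve content had a part in the clock genes' values was not tested. In bulk tissue, fewer cells of a type and less RNA per cell cannot be told apart.

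**Figure D1:**
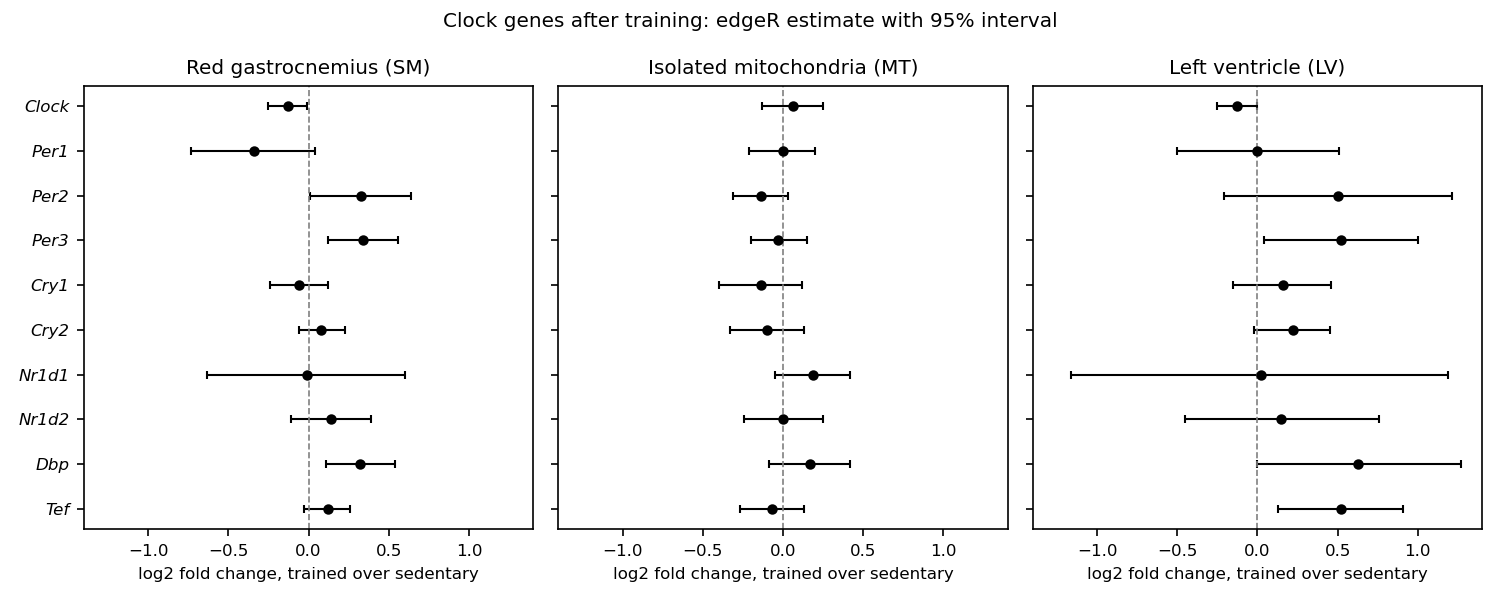
Log2 fold change of trained over sedentary rats for each of the 10 clock genes in red gastrocnemius (15 and 15 rats), isolated mitochondria (15 and 15) and left ventricle (7 and 7), as points with 95% intervals from edgeR. None of the 30 values passed the adjusted threshold, and the intervals of Nr1d1 are the widest in the 2 tissues, from -0.63 to 0.60 in muscle and from -1.16 to 1.19 in heart.

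In the heart the trained rats had higher median levels of several members, and the groups still overlapped for all 10. Tef, an output factor related to Dbp, ranged from 37.9 to 88.0 CPM in the 7 Sed rats (median 42.1) and from 51.6 to 96.8 CPM in the 7 ExT rats (median 67.7). All 7 trained rats lay above the Sed median, and the fitted log2 fold change was 0.52 (edgeR adjusted p = 0.804, SE 0.200). The 5 highest Tef levels of the 14 hearts were those of rats 25 to 29, of which 4 are among the 7 trained rats and 1 among the 7 Sed rats. Per3 ranged from 5.00 to 12.0 CPM in Sed (median 6.45) and from 7.33 to 15.95 CPM in ExT (median 10.9), again with 7 of 7 above the Sed median (0.52, SE 0.245). Dbp had a log2 fold change of 0.63 (SE 0.322), which was 0.27 at its lowest when each rat was left out in turn. Per2 had 0.50 (SE 0.363), and its 5 highest levels were in the same 5 rats. Leaving out rats 25 to 29 took away 4 of the 7 trained hearts and 1 of the 7 Sed hearts. In this smaller fit Per2 was at 0.13 and Tef at 0.40, whereas Per3 was at 0.86, Dbp at 1.15 and Nr1d1 at 0.77, with 0 members called. Rat 18 stayed in it, with 21.9 CPM of Dbp against 10.7 CPM in the next trained heart. Beyond these values, the part of rats 25 to 29 in the heart comparison was not tested. With all 14 hearts, Tef, Per3, Dbp and Per2 did not pass the test. In all, 0 of the 10 members were called, as were 0 of 14488 genes (0%). At an unadjusted p under 0.05 edgeR had 855 of the 14488 genes, and DESeq2 called 1 gene, no member among them. The members' median was 0.19, against 0.00 over all genes. Per1 was at 0.00 and Nr1d1 at 0.02, and leaving out each heart in turn took Nr1d1 as low as -0.36, Per1 to -0.10 and Nr1d2 to -0.07.

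Isolated mitochondria gave 0 called members and 0 called genes of 19281 (0%), with 912 genes at an unadjusted p under 0.05 and 0 called by DESeq2. The members' log2 fold changes lay between -0.14 for Cry1 and Per2 and 0.19 for Nr1d1, and their median was -0.02, against 0.00 over all genes. The difference in training response was also tested directly. Between MT and SM 0 of 10 members differed, where 5 of 27684 genes were called (0.0181%), and between LV and SM 0 of 10 differed, where 0 of 15049 were called (0%, with 687 genes at an unadjusted p under 0.05 in edgeR and 1 called by DESeq2). The widest gap between MT and SM was that of Per2, at -0.50 (edgeR adjusted p = 0.474, SE 0.204).

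The 2 ranges of rat numbers were compared in SM, with training as a covariate. Per1 was lower in the later range. It ran from 9.07 to 35.2 CPM in the 14 rats numbered 2 to 16 (median 15.1) and from 5.66 to 17.1 CPM in the 16 rats numbered 17 to 32 (median 11.8). The ranges overlapped, and 13 of the 16 later rats lay below the median of the earlier ones. The log2 fold change was -0.55 (edgeR adjusted p = 0.0279, SE 0.169), and Per1 was the 1 member of 10 called as lower, while 948 of 13570 genes (6.99%) were called as lower and 814 as higher. The call ended without Sed rat 16, which had the highest Per1 level of all SM libraries (-0.46, edgeR adjusted p = 0.0522), and within the Sed rats (-0.84, adjusted p = 0.162) and the ExT rats alone (-0.28, adjusted p = 0.214). Without a filter on low counts it was just missed (-0.56, adjusted p = 0.0506).

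The other 9 members did not pass this test. Nr1d1 had medians of 40.0 CPM in the earlier and 34.7 CPM in the later range (-0.43, SE 0.311), Cry1, a core repressor, 11.4 and 13.6 CPM (0.20, SE 0.0857), and the remaining values lay between -0.11 for Dbp and 0.12 for Tef. With rats 25 to 29 left out, Cry2, the second cryptochrome repressor, was called beside Per1 (-0.20, edgeR adjusted p = 0.0384). That fit called 2519 genes in all. Within the ExT rats alone Tef was called in place of Per1, at 0.31, in a fit that called 1536 genes. The test of whether the range difference depended on training called 0 members and 0 of 13570 genes (0%, with 1807 genes at an unadjusted p under 0.05 in edgeR and 56 called by DESeq2), Tef being nearest at 0.40 (SE 0.129, adjusted p = 0.216). The immediate early gene Junb fell by 0.31, and the glucocorticoid-responsive Cebpd fell by 0.35. Between the ranges, all 5 skeletal fibre markers found had values below 0 and 4 were called as lower, where 6.99% of all genes were. Their sum ran from 60565 to 131214 CPM in the earlier range and from 57310 to 102468 CPM in the later, with no marker at 0. Their part in the Per1 value was not tested.

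**Figure D2:**
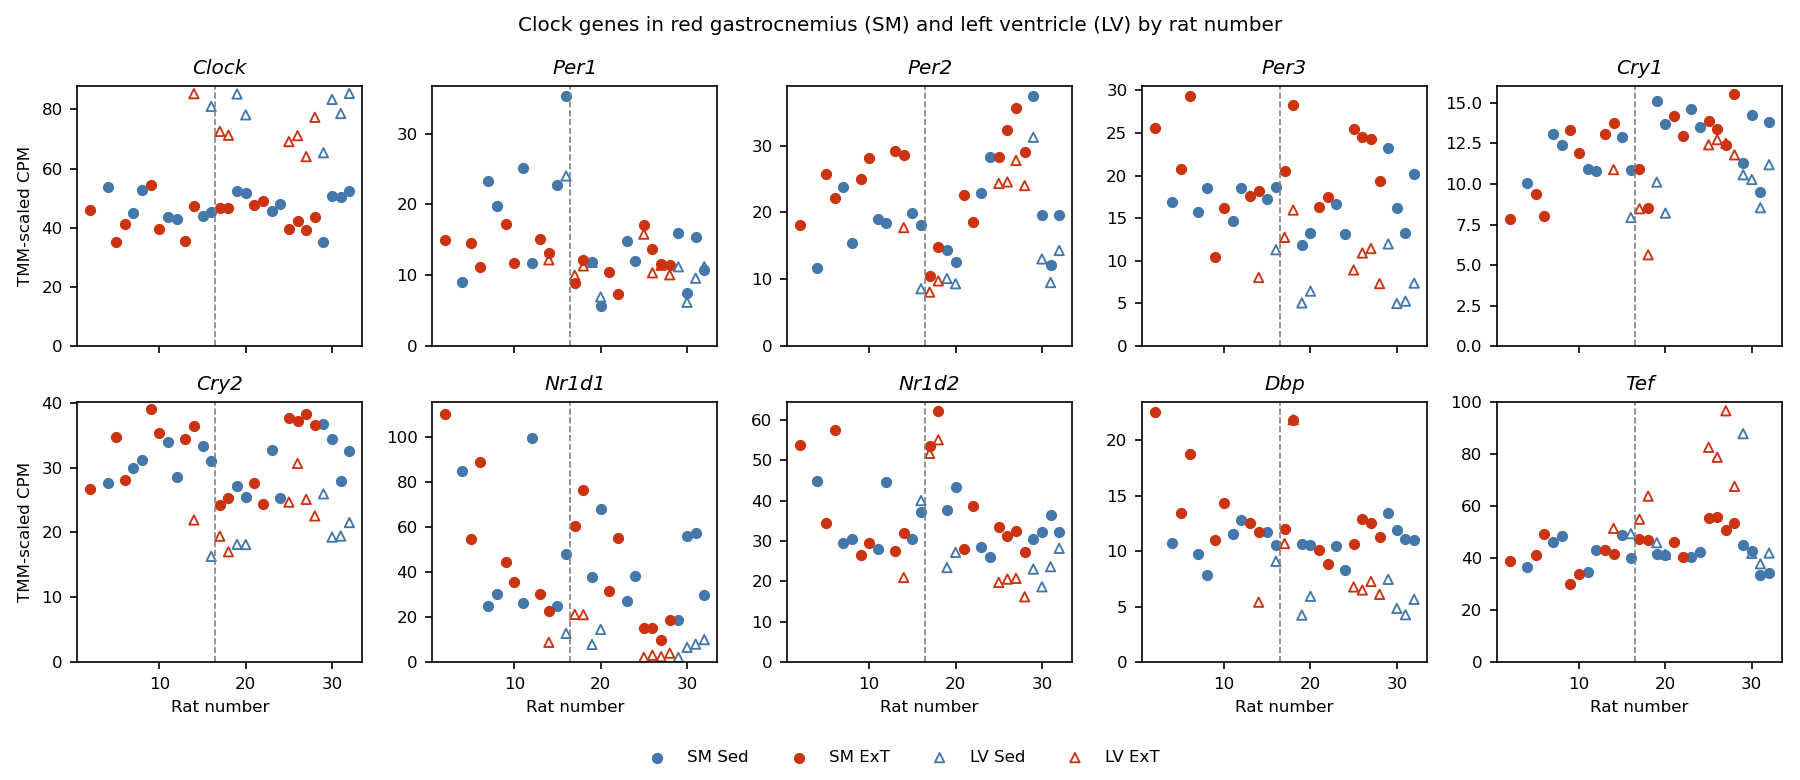
TMM-scaled CPM of each clock gene against rat number, 1 point per library: filled circles for red gastrocnemius (30 rats), open triangles for left ventricle (14 rats), blue for Sed and red for ExT, with a dashed line between rats 16 and 17. CPM is scaled separately in the 2 tissues; Nr1d1 falls to its lowest values at rats 25 to 29 in both, from 9.95 to 18.96 CPM in muscle and from 2.17 to 4.06 CPM in heart.

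A finer pattern than the 2 ranges was visible along the rat numbers. In SM the 5 lowest Nr1d1 levels were those of rats 25, 26, 27, 28 and 29, at 15.3, 15.4, 9.95, 18.96 and 18.6 CPM, and the lowest among the other 25 rats was 22.6 CPM. In LV the same 5 rats again had the 5 lowest levels, at 2.17, 3.12, 2.48, 4.06 and 2.19 CPM, and the lowest of the other 9 was 6.62 CPM, in rat 30. Per2 stood the other way. Its LV levels in rats 25 to 29 were 24.3, 24.6, 27.8, 24.0 and 31.3 CPM, the 5 highest of 14, and the next was 17.7 CPM in rat 14. Tef in LV was 82.7, 78.9, 96.8, 67.7 and 88.0 CPM in these rats, the 5 highest, with 64.0 CPM in rat 18 next. Cry2 in LV had its 5 highest levels there as well, from 22.6 to 30.6 CPM, with 21.9 CPM in rat 14 next. In SM these genes overlapped with the other 25 rats: 3 other rats lay within the Per2 range of rats 25 to 29 (28.3 to 37.5 CPM), 7 within that of Tef (44.98 to 55.9 CPM), and 1 above that of Cry2 (36.6 to 38.3 CPM). Per1, Per3 and Dbp of rats 25 to 29 lay inside the range of the other rats in both tissues.

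Rats 25 to 28 were trained and rat 29 was sedentary, so this run of rats crossed the training groups. Rat 29 had 31.3 CPM of Per2 and 2.19 CPM of Nr1d1 in the heart, and the sedentary rat 30, next in number, had 13.1 and 6.62 CPM. The LV levels of Npas2, the stand-in for Clock, in rats 25 to 29 were the 5 lowest of 14, from 3.69 to 6.43 CPM, against 6.87 CPM in the next rat. In SM 4 of the other 25 rats lay within their Npas2 range. Arntl did not set these rats apart, with 3 of the other 9 hearts and 9 of the other 25 muscles within their range. Fkbp5, 1 of the 10 glucocorticoid-responsive genes, was higher in these 5 rats than in 8 of the other 9 hearts and 21 of the other 25 muscles. The rest of that list was not read in this way, so Fkbp5 does not stand for it. These rats were picked out after their values were seen, and no test was made of them as a group. No label says what sets them apart.

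The heart and the muscle of the same rat were then compared over the 14 rats that had both, to ask whether a rat's clock genes stood at a matching level in 2 organs. They did for all 10 members: Pearson's r of log2(CPM + 1) lay between 0.73 for Cry1 and 0.95 for Per2, with a median of 0.84, and all 10 had a permutation q under 0.05 over the 20 relations tested. Over the 7978 genes with a mean of at least 5 CPM in both tissues the median r was 0.02, and 0.564% of genes reached the lowest of the members' values. Per2 had the highest r of all 7978 genes, Per1 ranked 5, Nr1d2 ranked 6, Nr1d1 ranked 9, Clock ranked 14 and Per3 ranked 15. For Per2 the permutation p was 1.0e-05, the smallest that 100000 permutations can give (q = 2.0e-04, Spearman's rho 0.93). By Spearman's rho 8 of the 10 had a q under 0.05, the exceptions being Cry1 (rho 0.50) and Dbp (rho 0.41).

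For Per2, Cry2, Nr1d1 and Tef the heart values of rats 25 to 29 lay apart from those of the other rats, so r was also taken over the other 9 rats alone. Per2 then had an r of 0.87 (permutation p = 0.00246, q = 0.0202), Tef 0.78 (permutation q = 0.0395), Nr1d1 0.52 and Cry2 0.51 (permutation q = 0.229 for both). The remaining members had 0.92 for Per1, 0.87 for Per3, 0.85 for Nr1d2, 0.82 for Cry1, 0.82 for Dbp and 0.48 for Clock. Their median was 0.82, against 0.04 over 7992 genes, and 6 of 10 passed by Pearson's r and 0 by Spearman's rho. The lowest of the 10, that of Clock, was reached by 906 of the 7992 genes (11.3%), and Cry2 ranked 754 and Nr1d1 720. When the 2 rats farthest from the SM median of each gene were left out, 7 of 10 passed over 12 rats. The relation of Dbp rested on those rats (r = 0.20 without them), rat 18 having 21.8 CPM in SM and 21.9 CPM in LV. That of Cry1 also did (r = 0.46), and that of Nr1d2 no longer passed (r = 0.62). In the later range alone (12 rats) all 10 passed by Pearson's r, from 0.71 to 0.99, and 7 by Spearman's rho. After removing each training group's mean all 10 passed by Pearson's r, from 0.67 to 0.95, and 8 by Spearman's rho. Both settings keep rats 25 to 29, so they do not show how the relations stand without these rats. The earlier range holds only rats 14 and 16 in LV, too few for a value.

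**Figure D3:**
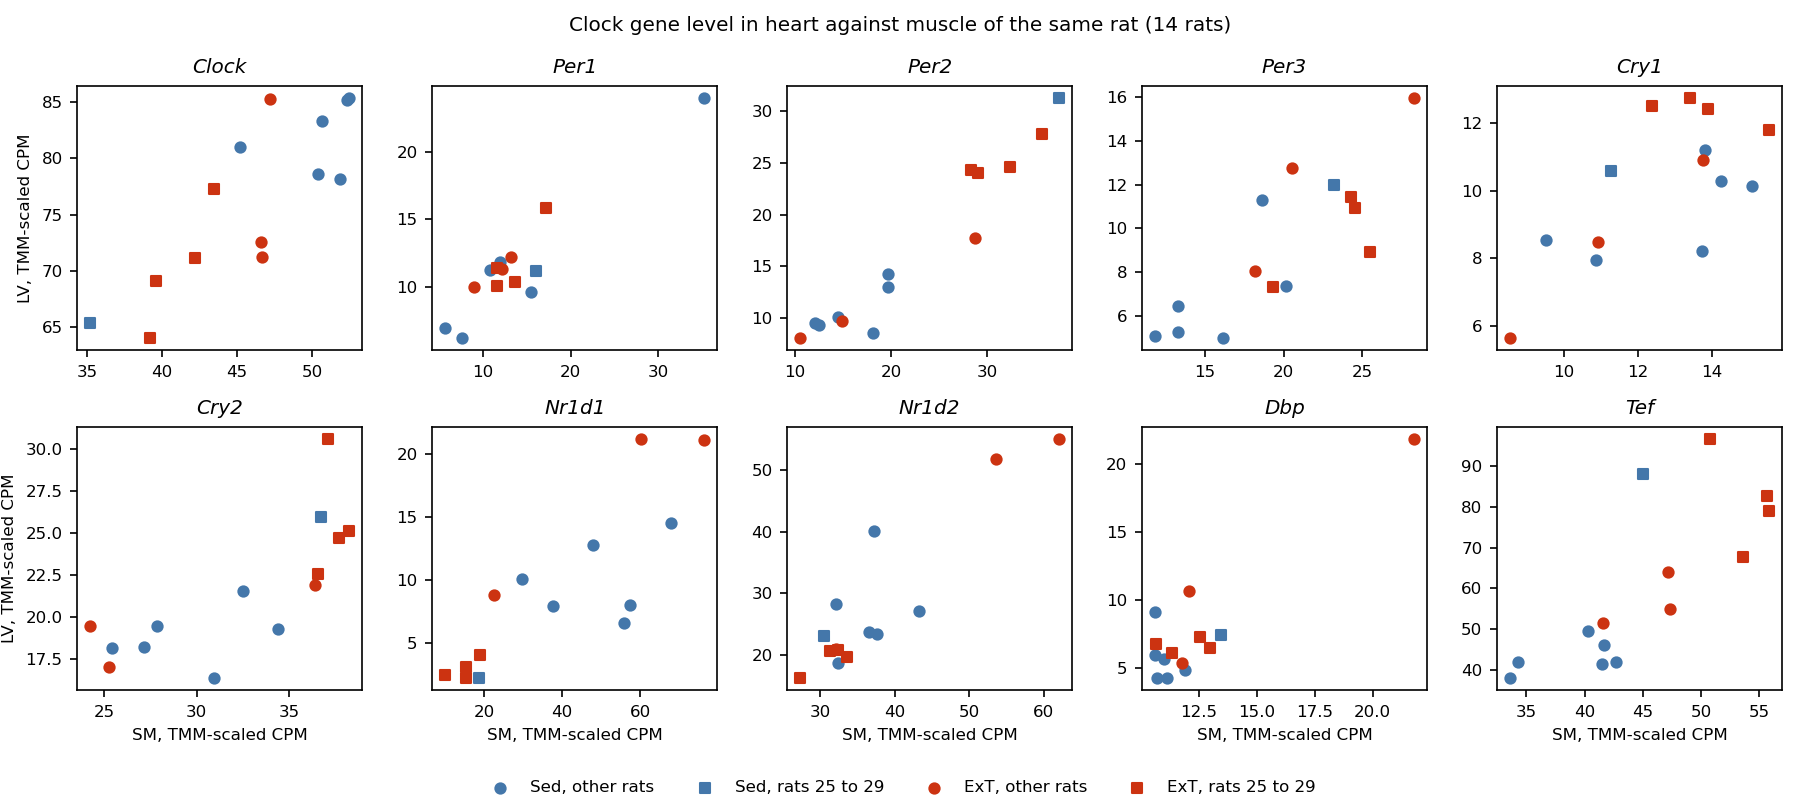
Left ventricle level against red gastrocnemius level of the same rat for each clock gene, in TMM-scaled CPM, over 14 rats; blue is Sed, red is ExT, and squares are rats 25 to 29. Axes differ between panels and do not start at 0. Per2 lies along a line over its range in both tissues (r = 0.95). The r of Dbp is 0.80, and 0.20 without the 2 rats farthest from its SM median.

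The same measure was read for the other clock genes that passed the level filter, as a description. Arntl had an r of 0.95 over the 14 rats, Npas2 0.94, Wee1, a cell-cycle kinase under clock control, 0.88, and Nfil3, the D-box repressor that opposes DBP and TEF, 0.86. Over the 9 rats without rats 25 to 29 these were 0.90, 0.87, 0.49 and 0.89. The kinase genes Csnk1d and Csnk1e had -0.19 and 0.24, the ubiquitin ligase gene Btrc 0.57, the deubiquitinase gene Usp2 0.45, and the orphan receptor Rora, an activator of Arntl, 0.07. Over the 9 rats these 5 genes had -0.14, 0.20, 0.46, -0.04 and 0.13. Among glucocorticoid-responsive genes, the chaperone gene Fkbp5 had 0.81, Tsc22d3 0.70 and the transcription factor Klf15 0.13, and over the 9 rats 0.69, 0.61 and 0.33.

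Within a tissue, pairs of members were compared across rats. In SM, Per2 and Cry2 had a Spearman's rho of 0.75 and Nr1d1 and Nr1d2 of 0.63, while Per2 against Nr1d1 had -0.71 and Cry2 against Nr1d1 -0.70. Cry1 was also opposed to Nr1d1 (-0.53). In LV the same pairs had 0.87, 0.82, -0.87, -0.78 and -0.78. Dbp and Per3 had 0.57 in SM and 0.93 in LV, and Clock against Dbp had -0.56 and -0.64. With each training group centred, Clock against Dbp had -0.34 in SM and -0.41 in LV, and Dbp and Per3 0.45 and 0.81. Over the 45 pairs rho spanned -0.71 to 0.75 in SM over 30 libraries, -0.87 to 0.93 in LV over 14 and -0.36 to 0.46 in MT over 30. The genes of a pair share their library, so these values are descriptive, and those of every tissue include rats 25 to 29.

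**Figure D4:**
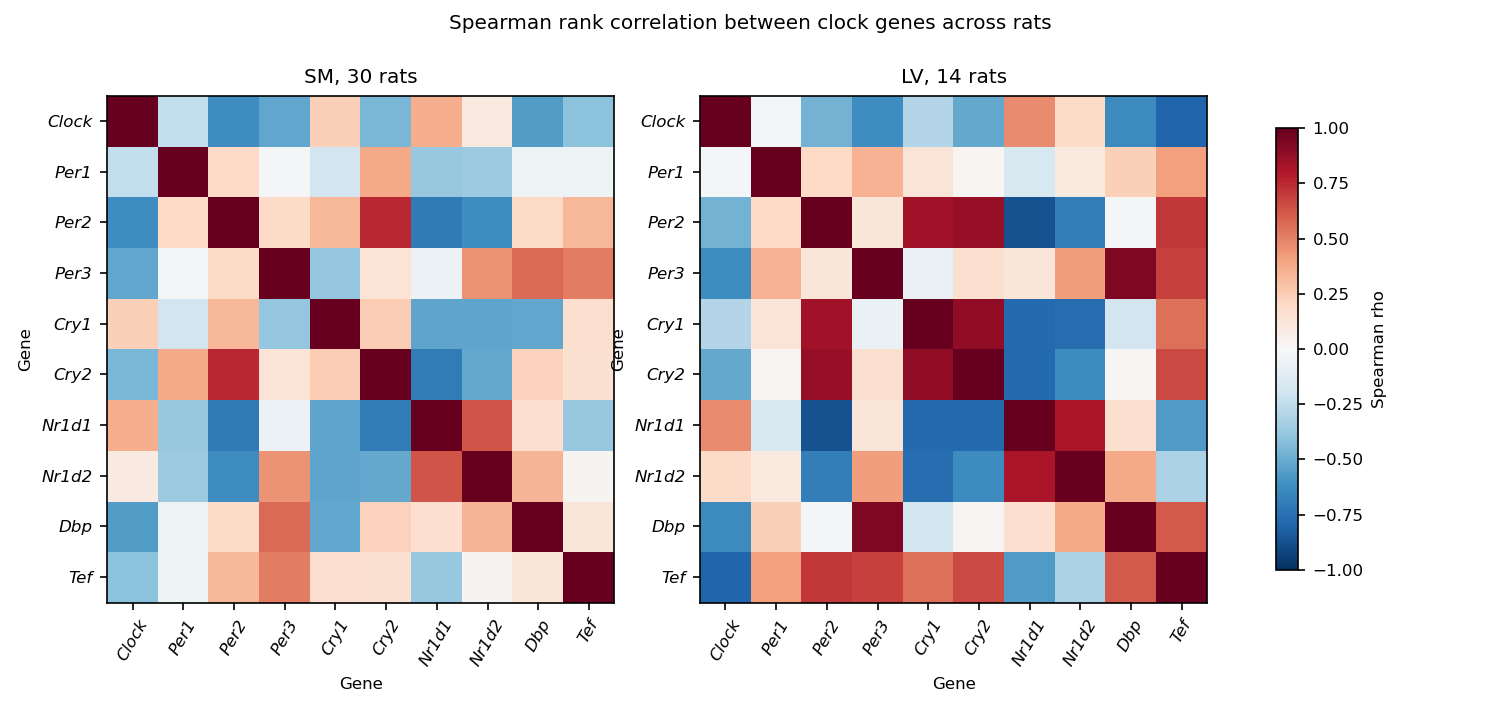
Spearman's rho between the 10 clock genes across rats, in red gastrocnemius (30 rats) and left ventricle (14 rats), from blue (-1) through white to red (1). Per2 and Cry2 are red against each other and blue against Nr1d1 and Nr1d2 in both panels, and Dbp pairs with Per3, at 0.57 in muscle and 0.93 in heart.

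Dbp was set against all 8783 named genes with a mean of at least 5 CPM in SM, to list the genes most like it over the 30 libraries. The highest rho were 0.75 for Pitx3, a homeobox factor, and 0.73 for each of Pgap4, Gpr146, Def8 and Wdr45. The lowest were -0.76 for Naa15, an N-terminal acetyltransferase subunit, -0.74 for Usp9x, -0.71 for Ppp3cb and Sec61a2, and -0.69 for Rnf170. With each rat range centred, these 10 kept absolute values of 0.67 to 0.84. Over the 14 LV libraries the rho of these genes with Dbp were -0.27 for Pitx3, 0.20 for Pgap4, 0.51 for Gpr146, 0.37 for Def8, 0.15 for Wdr45, 0.45 for Naa15, -0.30 for Usp9x, 0.49 for Ppp3cb, 0.29 for Sec61a2 and 0.14 for Rnf170, and the member Per3 had 0.93.

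Heart and muscle were compared over the 14 rats. Nr1d1 was lower in the heart, at 2.17 to 21.2 CPM over the 14 hearts and 9.95 to 110 CPM over the 30 muscles, with a log2 fold change of -2.28 (edgeR adjusted p = 8.2e-06, SE 0.397). Per3 (-1.33, SE 0.146), Dbp (-0.94, SE 0.181) and Cry2 (-0.80, SE 0.0851) were also lower, as were Per2 (-0.64, SE 0.237), Nr1d2 (-0.63, SE 0.179) and Cry1 (-0.54, SE 0.103). Clock was higher in the heart, with a log2 fold change of 0.52 (SE 0.0537), at 64.0 to 85.4 CPM in LV and 35.2 to 54.3 CPM in SM. Per1 (-0.44, edgeR adjusted p = 0.0602) and Tef (0.20, adjusted p = 0.0898) were not called, so 8 of 10 members were, in a comparison that called 85.4% of all 15049 genes (42.8% as higher, 42.6% as lower). With the rat as a replicate block, Per1 (-0.39, adjusted p = 2.3e-05) and Tef (0.16, adjusted p = 0.0482) were called too. With rats 25 to 29 left out Tef was at 0.01. Per2 was not called in the Sed rats (-0.68, adjusted p = 0.0864) or the ExT rats alone (-0.60, adjusted p = 0.112), nor Nr1d2 in the ExT rats alone (-0.62, adjusted p = 0.103). Of the other clock genes 18 were tested, 4 were higher in heart and 10 lower. Hlf, the third relative of DBP and TEF, was lower in heart (-3.01, SE 0.166). LV libraries were made with another kit and from 100 ng of RNA instead of 50 ng, which cannot be told apart from the tissue.

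Clock gene reads were present in every MT library at low depth. Counts per library ran from 10 to 53 for Cry1, from 22 to 79 for Clock and from 44 to 109 for Per2. The coefficient of variation over the 30 MT libraries was 16.3% for Tef, against 15.9% from counting alone, 18.7% against 14.9% for Clock, 24.0% against 21.2% for Cry1 and 24.1% against 18.1% for Nr1d1. It was further above counting for Per2 (18.6% against 12.2%), Per3 (18.9% against 12.7%), Per1 (20.9% against 15.2%), Nr1d2 (25.9% against 18.4%) and Cry2 (24.9% against 16.3%), whereas Nr1d1 in SM had 59.2% against 3.34%. As CPM of nuclear-encoded counts, Per2 ran from 61.3 to 153 in MT (median 101) and from 15.0 to 57.8 in SM (median 31.4), without overlap. Per3 ran from 66.1 to 141 (median 89.9) and from 14.8 to 44.5 (median 25.7), also without overlap. Nr1d1 had a median of 46.6 in MT and 54.1 in SM, with 11 of 30 rats higher in MT, and Tef had 57.1 and 62.6, with 13 of 30. On this scale Per1, Per2, Per3 and Cry1 were higher in MT in 30 of 30 rats.

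**Figure D5:**
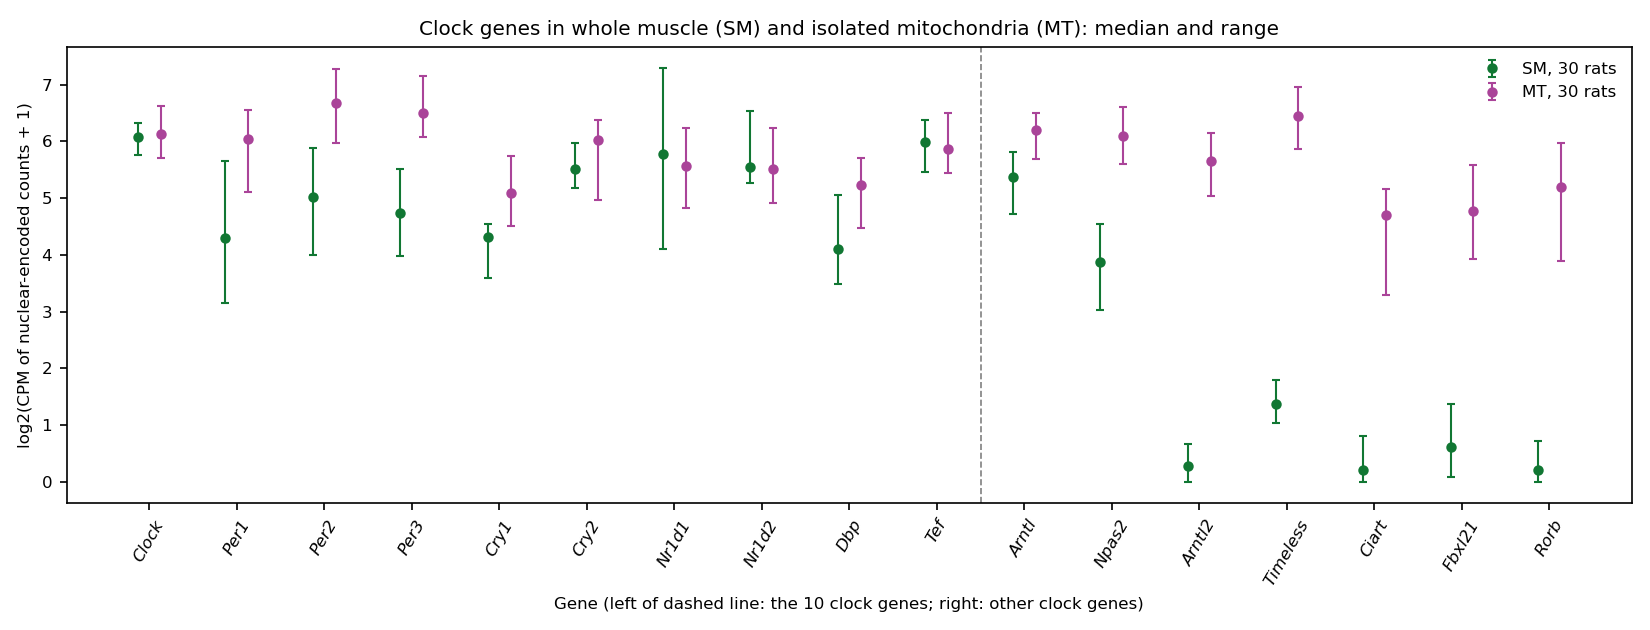
Level of the 10 clock genes and of 7 other clock genes in whole muscle (green) and isolated mitochondria (purple), as log2(CPM of nuclear-encoded counts + 1), with the median as a point and the lowest and highest of 30 libraries as bars. Rorb, Arntl2, Ciart and Fbxl21, with medians of 0.153 to 0.529 CPM in muscle, stand at 24.9 to 49.2 CPM in mitochondria.

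Other clock genes with next to no reads in muscle had reads in every MT library. Rorb, a receptor of brain and retina, had 0 to 16 counts in SM and a median of 0.153 CPM of nuclear-encoded counts, but 9 to 50 counts and a median of 35.8 CPM in MT. Arntl2, a paralog of Arntl, had medians of 0.221 and 49.2 CPM, and Timeless, a gene of DNA replication, 1.59 and 85.6 CPM. Olfactory and vomeronasal receptor genes, which have no known role in muscle, took 1.37% to 1.98% of nuclear-encoded counts in MT and at most 0.00158% in SM. The part of such background in the members' MT levels was not tested.

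On TMM-scaled values all 10 members were lower in MT than in SM, from -0.39 for Per3 to -2.67 for Nr1d1 (log2 fold change), in a comparison that called 96.8% of 27684 genes (28.9% as lower). The median of all genes stood at 3.38, and relative to it the members stood at -3.77 to -6.05. The sign of the members depended on the scaling: by library totals alone Per1 was at 1.22, Per2 at 1.20, Per3 at 1.35, Cry1 at 0.53 and Dbp at 0.57. All 10 lay below the median gene under 9 of the 10 settings tried, and 8 of 10 did when each library was thinned to the smallest total. This rank was not particular to the clock genes. On TMM-scaled values the list medians were -1.09 for the other clock genes, -2.27 for endothelial and -9.45 for skeletal fibre markers, while the heart markers stood above the median gene, at 5.08. The MT libraries were made from 10 ng of RNA after RNase A treatment, SM libraries from 50 ng without it.

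Levels in MT did not follow those in the muscle of the same rat for most members. Over 30 rats Pearson's r ran from -0.31 for Per3 to 0.51 for Per1, and Per1 was the 1 member of 10 with a permutation q under 0.05 (q = 0.00894, Spearman's rho 0.49). Without the 2 rats farthest from the SM median its r was 0.45, and Tef then passed as well, at -0.59 (permutation q = 0.0082), where it was -0.26 over all 30 rats. Within the earlier range the r of Per1 was 0.49 over 14 rats (permutation p = 0.0733), and within the later range 0.23 over 16 rats (permutation p = 0.391). The relation of Per1 thus did not pass within either range. Between the ranges, MT levels of Per2 were lower in the later rats, with a log2 fold change of -0.29 (edgeR adjusted p = 0.0364, SE 0.0810), the 1 member called of 10, where 1.67% of 19281 genes were called. Per2 ran from 33.3 to 60.9 CPM in the earlier range and from 24.98 to 46.8 CPM in the later. The call ended with library totals alone, with thinning and within the Sed rats (-0.38, edgeR adjusted p = 0.0876), and in the ExT rats alone Per2 did not pass the filter on low counts. The SM value of Per2 in the same comparison was 0.06 (SE 0.165).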

How the data were processed

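Counts per gene were used as the authors deposited them in 3 tables, for SM, MT and LV. Per the submitters' processing notes, FastQC 0.74, cutadapt 4.6, STAR 2.7.11a and HTSeq were used with build mRatBN7.2; strand setting and annotation version are not given in the sources used here, so antisense overlap cannot be told apart. The members and all gene lists were chosen with earlier results of these data known. Groups were taken from the sample titles, and the rat number in the title was taken to pair the tissues of an animal. The median correlation of same-rat deviations over all genes was 0.00498 for SM and MT and 0.0187 for SM and LV. Between different rats it was -1.4e-04 and -0.00413. The SM library was most like the library of its own rat in 2 of 30 rats for MT and 4 of 14 for LV. These values alone do not establish the pairing. Genes passing filterByExpr were tested with edgeR 4.0.16 (TMM, robust quasi-likelihood F test), p-values adjusted over all genes and called under 0.05. The step was tested on simulated counts. DESeq2 1.42.0, other scalings, filters, covariates, blocks and leave-one-out fits were alternatives. Correlations used log2(CPM + 1) and 100000 two-sided permutations over rats. Named were all 10 members, called genes of the lists with a mean of at least 1 CPM, and, outside this rule and after their values were seen, the uncalled genes of the lists given with values. Of the marker symbols, Atp2a1 was not found. Rats are separate animals, but housed in pairs. Depth sets the lowest level that can be read. At the depth of these libraries 3 counts are 0.0761 to 0.154 CPM in SM, 0.0396 to 0.0549 in LV and 0.300 to 5.66 in MT.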

Additional observations from a re-analysis of the deposited data

Results flagged for a closer look

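Of the 20 groups of 7 hearts checked (10 members in Sed and in ExT), 6 held a rat whose gap to the nearest other exceeded Dixon's critical value for 7 samples, where chance flags about 1 in 20 groups. The 10 genes were read in the same 7 rats of each arm and vary together, so these are not 20 independent checks and the count is not compared with that share. Of these, 3 were rat 29, sedentary: Clock at 65.3 CPM, lowest of its group with 78.1 CPM next, Per2 at 31.3 CPM, highest with 14.3 CPM next, and Tef at 88.0 CPM, highest with 49.5 CPM next. Per1 was highest in rat 16 among Sed hearts, at 24.0 CPM with 11.8 CPM next, and in rat 25 among ExT hearts, at 15.8 CPM with 12.2 CPM next. Dbp was highest in rat 18 among ExT hearts, at 21.9 CPM with 10.7 CPM next. Rats 16 and 18 also had the highest Per1 and Dbp levels in SM among these 14 rats, at 35.2 and 21.8 CPM. None of the 30 tests of a difference in response between tissues or ranges passed.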

How the results depend on the processing

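Of 1608 values for single members under alternatives, 30 lost and 9 gained a call with their sign kept. The sign differed from the reported value in 77: 12 of these were called values, all in the comparison of MT with SM, and 65 were values that had not passed the test, 19 of them in the SM range comparison, 16 in SM training and 9 in LV training. Between MT and SM, Per3 was at 0.15 by RLE and by DESeq2 and Per1 at 0.00 by DESeq2, and these values lost their call too. By library totals Per1 was at 1.22, Per2 at 1.20, Per3 at 1.35, Cry1 at 0.53 and Dbp at 0.57, all called as higher. Thinned to the smallest total Per1 was at 0.59, Per2 at 0.94, Per3 at 1.31 and Cry2 at 0.06. Of the 10 members Per3 was then the 1 called. In the SM range comparison 0 members were called without a filter or in Sed alone, and 0 to 1 when each rat was left out. With rats 25 to 29 left out (an alternative chosen after seeing the data) 2 members were called, where 2519 genes were. In the MT range comparison 0 were called by library totals, in Sed alone, in ExT alone (where Per2 did not pass the filter on low counts) or when thinned. Of the SM and LV relations 6 of 10 passed with rats 25 to 29 left out. Of the SM and MT relations 2 passed without the 2 farthest samples, with opposite signs (Per1 at 0.45 and Tef at -0.59). The cause of these changes was not tested, beyond the fewer rats or counts that some of them use. Among all genes, SM training called 28 genes, 137 with DESeq2, 45 with the range as a covariate, 396 in rats 2 to 16 alone, 1 in rats 17 to 32 alone and 12 to 100 when each rat was left out. With the rat as a replicate block 10 members were called between LV and SM in place of 8, 10 of 10 stayed called between MT and SM, and 0 in both tests of the training difference. Counts of 10 to 111 per MT library limit the precision of every MT value, and 2 hearts in the earlier range leave no range comparison for LV.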
